A study of Mus musculus with 9 samples.

Results

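The comparison described here set the hearts of mouse embryos with a single mutant Ctcf allele against wild-type hearts. Its members were the genes that averaged at least 1 TPM (a length-corrected share of all transcripts, scaled to a fixed total) over the 6 libraries of these 2 genotypes, which kept 13430 of the 24597 symbols in the table. Of these, 12962 reached that mean in both genotypes and 468 through 1 of them only. Just above the minimum, 197 genes had means of 1 to 1.1 TPM, and just below it 216 genes lay between 0.9 and 1 TPM.

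The study sequenced polyadenylated RNA from whole hearts of C57BL/6N embryos at E18.5. The mutation, CTCF-R567W, is a missense change in the last zinc finger of the protein, introduced by CRISPR/Cas9 gene editing. There were 3 wild-type libraries, 3 heterozygous libraries with 1 mutant and 1 normal allele, and 3 homozygous libraries with 2 mutant alleles, each made from a heart collected in its own tube. The embryos were a constitutive model, so the heart muscle and every other cell type of the organ, as well as every other organ, were mutant.

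CTCF is a zinc-finger protein that binds a long DNA motif and stops the cohesin ring as it extrudes chromatin loops. The paired CTCF sites so formed mark the borders of topologically associating domains and hold some enhancers near their promoters, among them those of the clustered protocadherins and of several imprinted genes. In the late fetal heart the dividing muscle cells fill with sarcomeres and mitochondria shortly before birth, and loss of CTCF from heart muscle is known to disturb this maturation.

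The libraries carried heart transcripts, with 6658 to 7759 TPM of Tnnt2, which encodes cardiac troponin T, and 9368 to 10700 TPM of Actc1, which encodes cardiac actin. Xist, the RNA of the inactive X chromosome, stood at 114, 146 and 112 TPM in the heterozygous libraries and at 87.8, 0.02 and 0.05 TPM in the wild-type libraries, so all 3 heterozygous hearts and wild-type 1 were female while wild-type 2 and 3, with 83.0 and 80.9 TPM of Y-linked transcripts, were male. Sex was therefore unevenly spread over the genotypes. Fragments of neighbouring organs also differed between libraries. Airway and lung markers summed to 4098 TPM for wild-type 1 and to 2020 TPM for heterozygous 1, but to 337 to 384 TPM in the others, where Hopx, which heart muscle also expresses, alone gave 304 to 374 TPM. Liver markers summed to 4328 TPM in heterozygous 1, 175 TPM in wild-type 1 and 31.2 to 55.4 TPM in the rest. Thymocyte markers were low in all 6 libraries, with sums of 18.3 to 25.8 TPM. The main results are given with and without these libraries below, and since whole organs were sequenced, fewer cells of a type and less RNA per cell cannot be told apart.

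Nearly the whole cardiac transcriptome showed no called difference with a single mutant allele. Of the 13430 genes, 2 (0.0149%) passed an adjusted p under 0.05, and both were lower in the heterozygous hearts. They were Spp1, which encodes the secreted matrix phosphoprotein osteopontin, and Gm13532, a processed pseudogene. No gene was called higher in limma, while 948 genes (7.06%) in either direction had an unadjusted p under 0.05. The homozygous hearts, compared with the same wild-type libraries in the same fit, had 44 called genes (0.328%). The test was limma on log2(TPM + 1) with 3 genotypes, and a log2 change always means heterozygous minus wild-type on that scale, which understates the change of low genes.

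The precision behind the absence of calls differed between genes. The median standard error was 0.18 on the log2 scale, and for 11967 genes (89.1%) the 95% interval of the change lay wholly between -1 and 1, while for 4603 genes (34.3%) it lay within 0.5 of 0. Genes whose intervals reached past these bounds could have differed by more without being called.

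The deposited values as a whole were displaced towards higher levels in the heterozygous hearts. Over all genes the median of the log2 change was 0.15, and 10997 genes (81.9%) lay above 0. Against the wild-type mean, the library medians were -0.11, -0.05 and 0.16 for wild-type 1, 2 and 3 and 0.15, 0.07 and 0.22 for heterozygous 1, 2 and 3, so wild-type 3 lay among the heterozygous libraries. Genes of 100 TPM or more had a median of 0.06 and those of 5 to 20 TPM a median of 0.18. Transcripts of the mitochondrial genome made up 27.2%, 27.8% and 24.5% of the wild-type libraries and 23.4%, 27.0% and 23.2% of the heterozygous libraries. After rescaling without the mitochondrially encoded and haemoglobin genes the median of the log2 change was still 0.12. Changes of gene groups are given relative to the median of all genes.

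**Figure D1:**
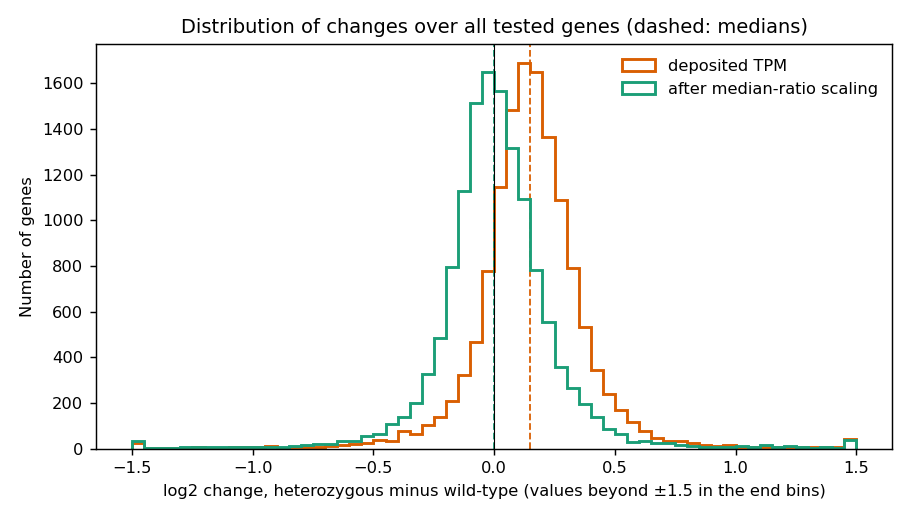
Number of genes (vertical axis) by log2 change, heterozygous minus wild-type, in steps along the horizontal axis for the 13430 tested genes, from the deposited TPM and after median-ratio scaling of the libraries. The dashed median of the deposited values lies at 0.15 and moves to 0 after scaling, with most genes of both curves between -0.5 and 0.5.

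The same displacement entered the counts of genes whose groups did not overlap. From the deposited values 1864 genes (13.9%) separated the genotypes without overlap, of which 1720 (12.8%) were higher and 144 (1.07%) lower in all 3 heterozygous libraries than in all 3 wild-type libraries. After median-ratio scaling, which divides each library by the median ratio of its genes to their mean, 771 (5.74%) were higher and 982 (7.31%) lower. The split of the unadjusted p under 0.05 moved likewise, from 864 higher (6.43%) and 84 lower (0.625%) to 326 higher (2.43%) and 462 lower (3.44%). A lack of overlap is therefore read below against these shares on both scales.

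Large differences were rare and were more frequent among pseudogenes and noncoding transcripts than among protein-coding genes. A log2 change beyond 1 in size was found for 190 genes (1.41%), 115 upward and 75 downward. Such changes were found for 113 of 12084 protein-coding genes (0.935%), 22 of 622 long noncoding genes (3.54%) and 39 of 312 pseudogenes (12.5%). The median standard error was 0.17 for protein-coding genes and 0.32 for pseudogenes, so the second class was also the less precisely measured. By chromosome the autosomes had medians between 0.14 and 0.16, the X chromosome 0.13 and the 15 tested genes of the mitochondrial genome -0.10.

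Gm13532 lies on chromosome 2 at positions 57628989 to 57629228 of GRCm38/mm10, on the minus strand, and is annotated as a processed pseudogene. It stood at 30.3, 17.9 and 9.92 TPM across wild-type libraries, whereas it was listed at 0 in all 3 heterozygous libraries and all 3 homozygous libraries. It was among the 468 genes that reached the minimum through 1 genotype only, here the wild-type, so a difference was built into its selection. The fitted log2 change was -4.22 ± 0.33 (SE), with a limma adjusted p of 0.000978, and the gene passed under all 24 alternatives that tested it. The size of that change is set by the pseudocount, being -7.46 with a pseudocount of 0.1 and -2.20 with 5, and gives no fold. An exact 0 in a table of estimates can be a failed assignment of reads.

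Its sequence is shown because it bears on what that count can mean. Over 207 of its 240 bases, Gm13532 aligned to the transcript of Rps27a, a ribosomal protein gene that is made as a fusion with ubiquitin, with 205 identical bases (99%). The differences were G157A and A228G, giving the Rps27a base, the position from the 5′ end of Gm13532 and the Gm13532 base. The window that ends in the first difference, positions 128 to 157 of Gm13532 (GENCODE M21 transcripts, GRCm38), reads as follows, with the differing base in capitals.
Gm13532: agtgtccttctgatgaatgtggtgctggaA
Rps27a: agtgtccttctgatgaatgtggtgctggaG
Of the words of 31 bases in Gm13532, 63.3% also occurred in Rps27a. Rps27a itself stood at 670, 583 and 543 TPM across wild-type libraries against 606, 553 and 563 TPM in the heterozygous libraries. These groups overlapped, with a log2 change of -0.06. Reads of the shared words cannot be told apart between the pseudogene and its parent in a gene table, so the level of Gm13532 is uncertain. The nearest tested gene, Gpd2, 392 kb away, had a log2 change of 0.22.

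Spp1 lies on chromosome 5 at 104435118 to 104441050, on the plus strand. Osteopontin is secreted by bone, by activated macrophages and by stressed heart and vascular cells. The level was 8.90, 7.41 and 12.9 TPM across wild-type libraries against 1.85, 0.74 and 1.43 TPM in the heterozygous libraries. Every heterozygous library lay below every wild-type library, with means of 9.72 ± 2.81 and 1.34 ± 0.56 TPM (SD, n = 3). The log2 change was -2.19 ± 0.25, with a 95% interval of -2.75 to -1.64 and a limma adjusted p of 0.0241. The homozygous libraries held 0.43, 0.52 and 0.30 TPM.

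The call of Spp1 was less firm than its direction. It stayed negative in all 24 alternatives, between -2.82 and -1.20, but passed in 10 of them, with adjusted p from 0.00235 to 0.398. It did not pass in limma without wild-type 1 (0.147), wild-type 2 (0.0508), heterozygous 2 (0.129) or heterozygous 3 (0.150), nor with both replicates 1 left out (0.101). With sex as a covariate the adjusted p was 0.398 at a log2 change of -2.16. Spp1 also did not pass with only the 6 libraries of these 2 genotypes in the fit or with the replicate number as a block. The same held with a pseudocount of 0.1, without the filter on low values and with a minimum mean of 5 TPM. The 10 passes include a fit with weights on the libraries, whose estimate did not converge.

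The list of macrophage genes, which does not include Spp1, held no called gene. Of 18 tested, none separated the genotypes in the deposited values and 1 was lower after median-ratio scaling, against 7.31% of all genes. Of these 18 genes, 17 lay below the median of all genes and 11 below 0. Their median relative to all genes was -0.21. It became -0.48 in the female libraries, 0.0007 without wild-type 1 and -0.08 without heterozygous 2. Cd68, a lysosomal marker of macrophages, stood at 4.56, 3.31 and 2.83 TPM for wild-type against 3.95, 4.33 and 3.05 for heterozygous hearts. Csf1r, the receptor for the macrophage growth factor CSF1, stood at 5.15, 3.96 and 4.67 against 4.97, 3.02 and 5.09 TPM. Both genes overlapped between the genotypes. The bone gene Ibsp was at 0.3 TPM or less in all 6 libraries, below the minimum for testing.

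A pair of genes named after their values were seen separated the genotypes in the same direction as Spp1. Gpnmb, a transmembrane glycoprotein of activated macrophages, stood at 2.96, 2.12 and 5.47 TPM for wild-type against 0.70, 0.85 and 1.76 for heterozygous hearts, with a log2 change of -1.07 ± 0.31 that did not pass (limma adjusted p = 0.655). Mmp12, macrophage elastase, stood at 1.68, 1.36 and 1.85 TPM against 0.06, 0.11 and 0.32 TPM. Its mean was below the minimum, and without that filter it passed at a limma adjusted p of 0.049. Other genes named from here on were not called, with limma adjusted p of 0.655 or more unless another value is given.

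**Figure D2:**
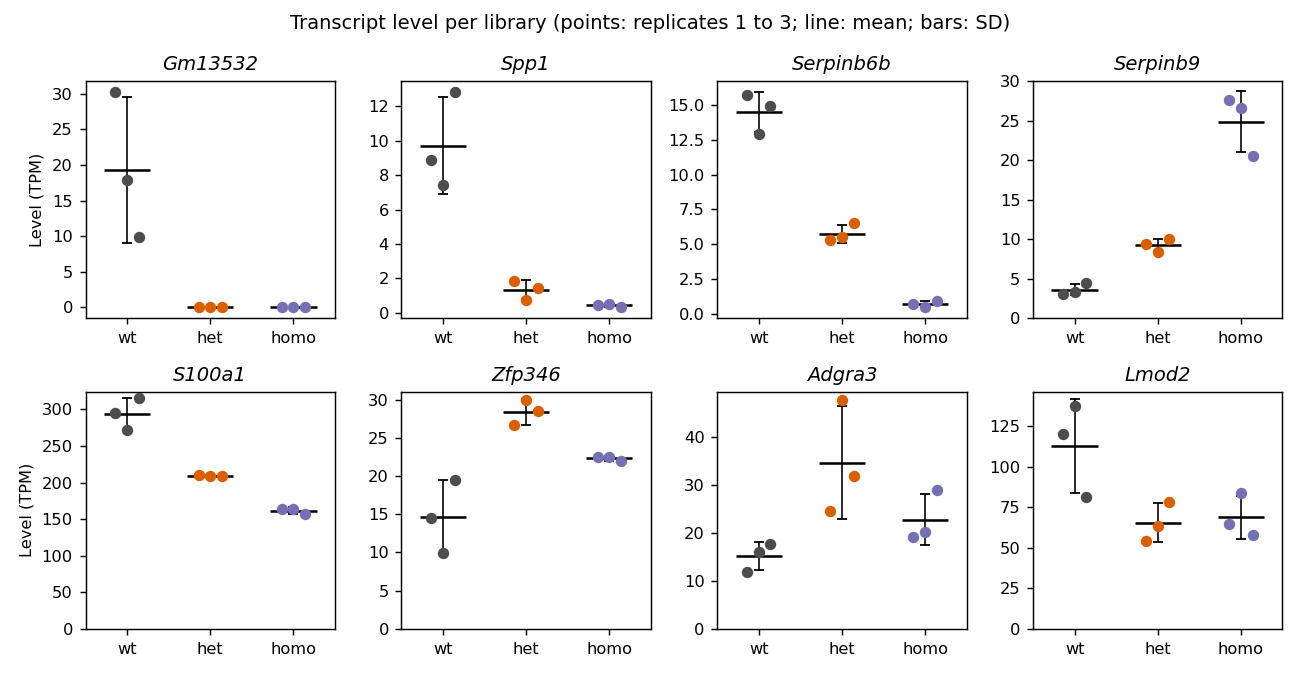
TPM (vertical axis, from 0) of 8 genes in each wild-type (wt), heterozygous (het) and homozygous (homo) library, with points for replicates 1 to 3, a line for the mean and bars for the SD. Gm13532 is listed at 0 in all 6 mutant libraries, Spp1 and Serpinb6b lie lower and Serpinb9 higher in every heterozygous library than in every wild-type library, and Lmod2 nearly overlaps through wild-type 3 (81.1 TPM) and heterozygous 3 (78.4 TPM).

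The next smallest adjusted p values belonged to a neighbouring pair of serpins on chromosome 13. Clade B serpins are intracellular inhibitors of serine proteases, and Serpinb9 blocks granzyme B. Serpinb6b stood at 15.7, 12.9 and 14.9 TPM for wild-type against 5.28, 5.49 and 6.50 for heterozygous hearts. Serpinb9 stood at 3.13, 3.28 and 4.43 TPM and at 9.45, 8.38 and 9.98 TPM. Neither gene overlapped between the genotypes, and the homozygous libraries held 0.44 to 0.87 TPM of Serpinb6b and 20.5 to 27.6 TPM of Serpinb9.

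In limma neither serpin passed, both with an adjusted p of 0.081. The log2 changes were -1.20 ± 0.17 for Serpinb6b and 1.16 ± 0.16 for Serpinb9, with 95% intervals of -1.57 to -0.83 and 0.80 to 1.53. After median-ratio scaling both passed, with adjusted p of 0.0309 and 0.0128, as they did after quantile normalization (0.0244 and 0.022). With sex as a covariate both were at 0.619, and with both replicates 1 left out both were at 1. The starts of the genes lie 38 kb apart. The other tested genes within 500 kb of Serpinb9 were Wrnip1 (0.28), Mylk4 (0.33) and Serpinb1a (-0.12, log2 changes). Of the 9 tested genes of the wider serpin cluster, 3 were higher and 1 lower without overlap, against 12.8% and 1.07% of all genes, and after median-ratio scaling 1 was higher and 2 lower, against 5.74% and 7.31%.

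The promoter of Serpinb6b is shown because it was 1 of the few named genes to hold a word like the core of the CTCF motif. The word, CCA, any 2 bases, AG, any 2 bases and GGC, was searched on both strands in RefSeq promoters (GRCm38.p6, 250 bases before to 50 after each start). It occurred in 797 of 32851 promoters (2.43%), in 353 of 12547 promoters of tested genes (2.81%) and in 2 of 23 promoters of the 20 named genes that matched, those of Serpinb6b and Ehd4. In Serpinb6b it lies on the opposite strand and starts 74 bases before the RefSeq start. The window of 30 bases that holds it, chr13:32965178-32965207 on the plus strand, reads as follows with the word in capitals.
Serpinb6b: gcgttgcatGCCCCCTAGTGGacacccttc
A match of letters is a description, and binding was not measured in these libraries.

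Ctcf itself, the mutated gene, was measured as total transcript of both alleles, since a missense change does not remove reads. It stood at 27.0, 29 and 34.3 TPM for wild-type, 33.8, 33.2 and 38.7 for heterozygous and 38.9, 41.4 and 50.2 for homozygous hearts. The wild-type and heterozygous values overlapped through wild-type 3, with a log2 change of 0.22 ± 0.14 and a 95% interval of -0.08 to 0.53. All 18 tested genes of Ctcf and the cohesin machinery lay above 0 and 13 above the median of all genes, but none was called. Pds5b, a cohesin-associated factor, had the highest change (0.41) and Stag2, a cohesin subunit, the lowest (0.02). The genotype of each library is not checked by these levels, since the altered base cannot be seen in a gene table.

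Around the mutated locus, 33 other genes within 500 kb were tested. Their median log2 change was 0.13, near that of all genes. Without overlap 3 were higher, namely Fhod1, Slc9a5 and Edc4, and none lower, against 12.8% and 1.07% of all genes. Gm5914 is a noncoding gene that overlaps Ctcf on the opposite strand, with listed starts 0.917 kb apart. Where the 2 genes overlap, their reads cannot be told apart. Gm5914 stood at 4.29, 0.86 and 2.68 TPM for wild-type against 1.69, 0.03 and 0.90 for heterozygous hearts. The values of the 2 genotypes overlapped, with a change of -0.93 ± 0.50. Around Spp1 the 7 tested neighbours lay between 0.06 and 1.01, the highest being Hsd17b13, a liver gene, so none of them was lower beside Spp1.

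**Figure D3:**
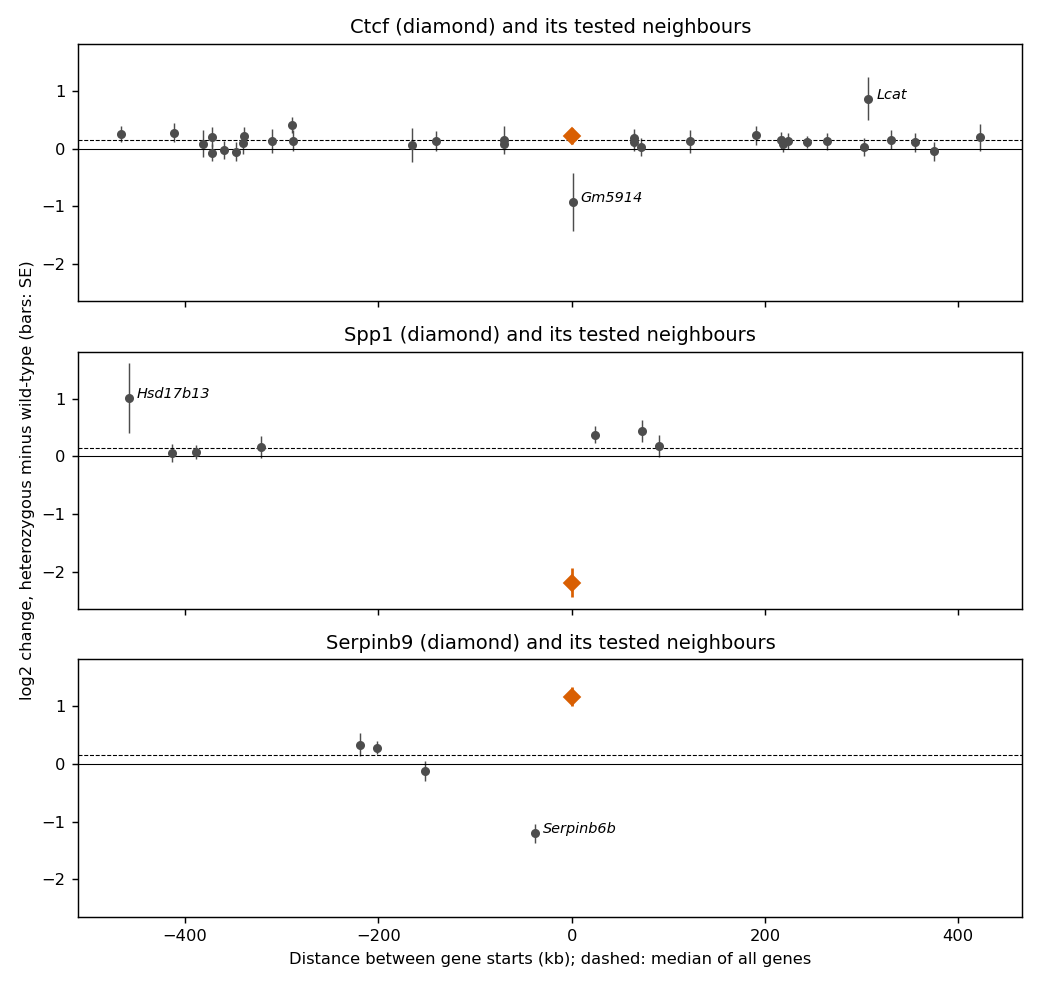
Log2 change, heterozygous minus wild-type (vertical axis, bars are SE), of tested genes by distance in kb of their starts (horizontal axis) from Ctcf, Spp1 and Serpinb9, each drawn as a diamond at 0. The 33 neighbours of Ctcf scatter around the dashed median of all genes at 0.15, Spp1 lies at -2.19 among neighbours above 0, and Serpinb6b at -1.20 lies 38 kb from Serpinb9 at 1.16.

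Other genes with the lowest changes without overlap had levels that rested on wild-type 1 and 2. Otud1, a deubiquitinase, stood at 17.1, 20.9 and 7.90 TPM for wild-type against 5.92, 6.17 and 7.56 for heterozygous hearts (-1.02). Abra, an actin-binding activator of SRF signalling, stood at 19.99, 21.9 and 9.67 against 8.67, 8.50 and 9.08 TPM (-0.82). Mir22hg, the host transcript of miR-22, stood at 17.0, 23.8 and 8.60 against 7.93, 5.92 and 7.43 TPM (-1.01). In all 3 genes wild-type 3 lay close to the heterozygous libraries. Otud1 passed in limma without wild-type 3 (adjusted p = 0.0244) and with library weights, and under none of the other 22 alternatives.

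The rest of the lowest group were transcripts whose reads are hard to assign. Gm20721, which overlaps Gnas on the opposite strand, stood at 17.1, 38.9 and 4.92 TPM against 2.96, 0 and 0 TPM. Hist1h2af, an H2A histone gene that shares 85.9% of its 31-base words with Hist1h2ad, stood at 26.0, 26.1 and 14.1 against 12.9, 2.15 and 6.65 TPM. Gm12854, a processed pseudogene that shares 84.6% of its words with S100a11 and overlaps Uqcrh on the opposite strand, stood at 8.32, 14.2 and 12.0 against 6.17, 2.64 and 6.01 TPM. The small RNA gene Gm22009 (-0.92), inside Kpna4, completed the group.

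The genes with the highest changes without overlap were led by Xist (4.77), which followed sex as given above. Immp2l, a protease of the mitochondrial inner membrane, stood at 2.01, 6.74 and 2.05 TPM for wild-type against 8.07, 22.5 and 6.91 for heterozygous hearts (1.52 ± 0.47). Adgra3, an adhesion G protein-coupled receptor, stood at 11.9, 16.0 and 17.7 against 24.6, 47.7 and 31.8 TPM (1.11 ± 0.24). Zfp346, a zinc-finger protein that binds double-stranded RNA, stood at 14.5, 9.93 and 19.5 against 26.6, 29.9 and 28.5 TPM (0.95 ± 0.19, limma adjusted p = 0.577). In Immp2l and Adgra3 heterozygous 2 stood far above its group. For Immp2l wild-type 2 (6.74 TPM) lay just below heterozygous 3 (6.91 TPM). Median-ratio scaling divides these libraries by 0.867 and 1.08, which reverses that order. Gm19918 (1.48), Nrn1 (1.05), which encodes neuritin, and Gm4149 (0.98), of whose words 87.4% occur in Rpl37a, were also in this group.

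Below 5 TPM, Gm20186 was singled out after its values were seen, because it was not called but separated all 3 genotypes. It stood at 1.4, 1.52 and 0.86 TPM for wild-type, 4.86, 4.07 and 3.45 for heterozygous and 12.9, 10.1 and 7.81 for homozygous hearts. The heterozygous change was 1.18 ± 0.21 (limma adjusted p = 0.471). Its values were seen before it was named, so they are a description.

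Sarcomere genes, which build the contractile apparatus, showed no called difference. Of 37 tested, 28 lay above 0, 16 lay above the median of all genes, and the median relative to all genes was -0.03. Without overlap 1 was higher and 2 lower, against 12.8% and 1.07% of all genes. After median-ratio scaling none was higher and 7 lower, against 5.74% and 7.31%. Lmod2, leiomodin 2, which lengthens the thin actin filament, was the lowest. It stood at 120, 137 and 81.1 TPM for wild-type against 54.4, 63.8 and 78.4 for heterozygous hearts, without overlap, and at 64.6, 83.9 and 57.9 TPM in homozygous hearts. The log2 change was -0.76 ± 0.21, with a 95% interval of -1.22 to -0.29 and a limma adjusted p of 0.655. Ttn, titin, had the highest change (0.44), followed by Myh7, the slow myosin heavy chain, at 0.36.

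The study named 13 genes for the homozygous hearts, a list chosen on libraries that include these wild-type hearts and therefore not independent of them. None was called in heterozygous hearts. Their median relative to all genes was -0.25, with 11 of 13 below 0, and 3 (Lmod2, Uqcrh and Cryab) lay lower without overlap, against 1.07% of all genes. After median-ratio scaling 6 were lower, against 7.31%. Uqcrh, a hinge subunit of complex III, stood at 1444, 1379 and 1418 TPM for wild-type against 1278, 1289 and 1236 for heterozygous hearts (-0.16 ± 0.08). Acta1, skeletal actin, stood at 71.1, 79.6 and 66.2 against 88.2, 59.1 and 68.5 TPM, with full overlap and an interval of -0.61 to 0.56. Of the remaining genes, Cnn1 (-0.41), Syt7 (-0.26), Myl9 (-0.17) and Dbi (-0.15) were below 0, while Lmod3 (0.18) and Ehd4 (0.10) were above.

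Calcium handling genes had a median of -0.01 relative to all genes, with none of 23 called. S100a1, a calcium sensor that raises ryanodine receptor and SERCA activity, was the lowest at -0.49 ± 0.09 (limma adjusted p = 0.471). It stood at 295, 271 and 316 TPM for wild-type, 210, 208 and 209 for heterozygous and 164, 164 and 156 for homozygous hearts. The heterozygous libraries lay within 2 TPM of each other and below every wild-type library, and after median-ratio scaling S100a1 was called lower, as 1 of 5 genes. Ryr2, the ryanodine receptor, was the highest at 0.48 and overlapped between the genotypes.

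Conduction and ion channel genes lay slightly above all genes, with a relative median of 0.12 and none of 16 called. Without overlap, 5 were higher and 1 lower, against 12.8% and 1.07% of all genes. After median-ratio scaling 3 were higher and 1 lower, against 5.74% and 7.31%. Kcnj3, an atrial inward rectifier, stood at 13.9, 13.04 and 13.4 TPM against 17.3, 25.5 and 19.3 TPM (0.57). Gjd3, a connexin, stood at 1.15, 0.87 and 0.61 against 3.06, 1.19 and 1.63 TPM (0.62). Kcne1, a potassium channel subunit, was the lower one at 96.3, 98.2 and 125 against 89.8, 87.0 and 96.2 TPM (-0.22).

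Genes of oxidative phosphorylation had a median slightly below that of all genes in the deposited values, without a call. Of 79 nuclear genes of the respiratory chain and ATP synthase, 78 lay below the median of all genes, and the relative median was -0.14, which became -0.02 after quantile normalization. In absolute terms their median was 0.01, with 47 above 0. Without overlap 1 was higher and 7 lower, against 12.8% and 1.07% of all genes. After median-ratio scaling none was higher and 31 lower, against 5.74% and 7.31%. The changes ran from -0.16 (Uqcrh) to 0.15 (Sdha, a subunit of complex II), and Atp5j2, an ATP synthase subunit, stood at 598, 634 and 632 TPM against 554, 576 and 545 TPM. Genes of 100 TPM or more had a lower median than all genes, 0.06 against 0.15, and 76 of the 79 genes belonged to that range.

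Other groups lay below the median of all genes as well, by an amount that depended on the normalization. The 50 proteins of the mitochondrial ribosome had a relative median of -0.11, with 45 below the median of all genes and 12 at 100 TPM or more. The 83 cytosolic ribosomal protein genes had -0.17, with all 83 below the median of all genes and 79 at 100 TPM or more. Their relative median was -0.38 in the female libraries, -0.04 after quantile normalization and -0.06 without wild-type 1. The 22 glycolysis and lactate genes had -0.09, with Gapdh at -0.10. Their relative median was 0.01 after quantile normalization and -0.18 with median-ratio scaling and sex as a covariate. Without overlap, 0 glycolysis, 2 mitochondrial ribosome and 2 cytosolic ribosomal genes were higher, against 12.8% of all genes. Lower were 0, 0 and 4, against 1.07%. After median-ratio scaling 0, 1 and 0 were higher, against 5.74%, and 11, 12 and 4 lower, against 7.31%. Fatty acid oxidation (-0.01, 28 genes) and sterol biosynthesis (0.00, 22 genes) lay at the level of all genes. No member of these lists was called. The 13 protein-coding genes of the mitochondrial genome had a relative median of -0.22, and -0.0022 after quantile normalization, with mt-Nd1, a complex I subunit, at 20823, 23310 and 15766 TPM for wild-type against 12670, 14718 and 15263 for heterozygous hearts (-0.48), while mt-Nd4 overlapped at 0.08.

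**Figure D4:**
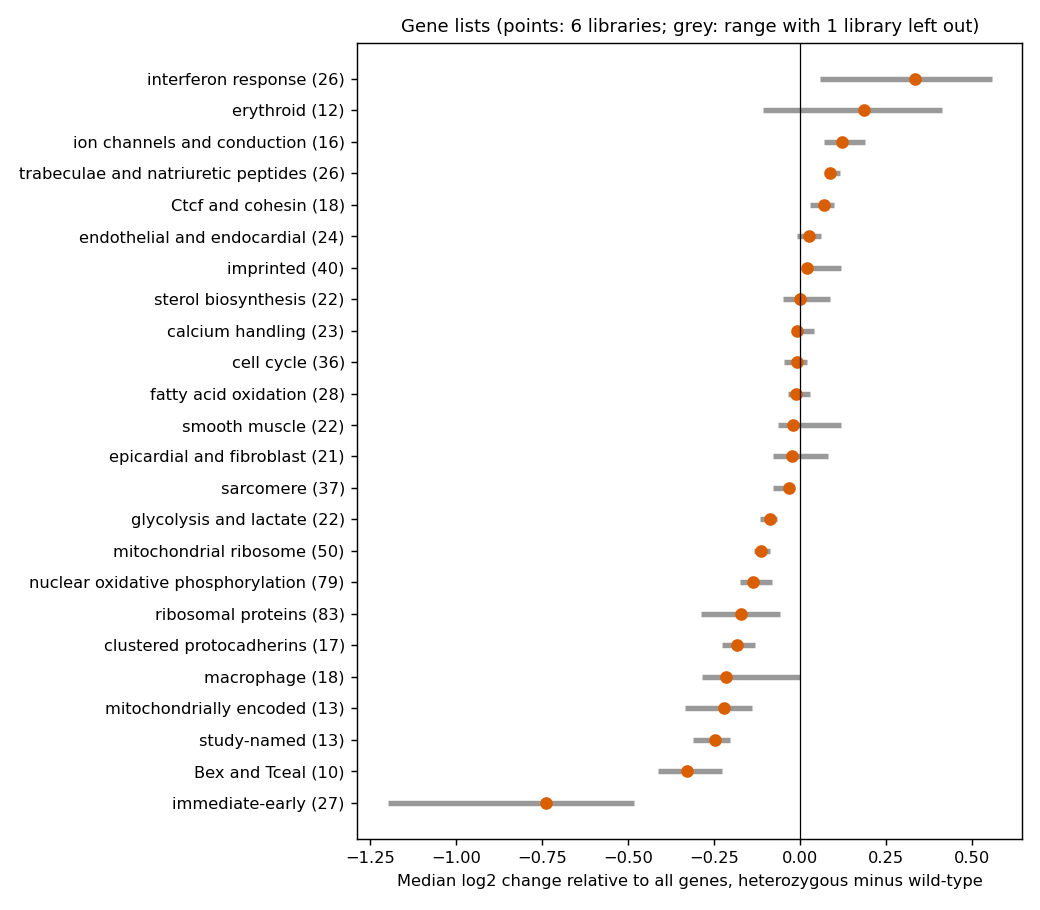
Median log2 change relative to all genes (horizontal axis) of 24 gene lists, with the number of tested genes in brackets, where points use all 6 wild-type and heterozygous libraries and grey bars span the values with 1 of these libraries left out. Most lists lie within 0.25 of 0, and the immediate-early genes lie farthest below at -0.74 with a range that reaches -0.48 without wild-type 1.

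Immediate-early genes are transcription factors that respond within minutes to a stimulus. They had the largest displacement of any list, apart from the Y-linked genes and the lists of other organs. Of 27 tested, 26 lay below 0 and 9 had an unadjusted p under 0.05, but none was called, and the relative median was -0.74. The genotypes overlapped for most of them. Without overlap 2 (Egr3 and Jund) were lower, against 1.07% of all genes, and 3 after median-ratio scaling, against 7.31%. Atf3, a stress-induced repressor, stood at 109, 101 and 9.74 TPM for wild-type against 16.3, 6.66 and 8.84 for heterozygous hearts (-2.18). Fos stood at 120, 63.5 and 3.26 against 45.4, 6.94 and 4.51 TPM.

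The highest values belonged to wild-type 1 and 2, followed by heterozygous 1. The list summed to 2208, 1710 and 561 TPM for wild-type against 894, 523 and 537 for heterozygous hearts, so wild-type 3 lay with heterozygous 2 and 3. Atf3 passed in limma when wild-type 3 was left out (adjusted p = 0.0174), together with Adamts1, a matrix protease (0.0496), and Sgk1, a serum-induced kinase (0.0244). The handling of the hearts before freezing was not given for each library, and its part in the result was not tested.

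Genes of the interferon response varied widely within each genotype. Of 26 tested, 24 lay above 0 with a relative median of 0.33, and none was called. Only Stat2, a signal transducer of type I interferon, was higher without overlap, against 12.8% of all genes. The list summed to 254, 196 and 356 TPM for wild-type against 380, 284 and 481 for heterozygous hearts. Oasl2 stood at 11.3, 7.98 and 22.96 against 19.6, 19.9 and 29.5 TPM (0.77 ± 0.48). The relative median was 0.06 without heterozygous 3.

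Erythroid genes varied between libraries of the same genotype. All 12 tested lay above 0 with a relative median of 0.19, which became -0.11 without heterozygous 1. Hbb-bs, adult beta globin, stood at 4795, 5671 and 1043 TPM for wild-type against 5675, 2877 and 1783 for heterozygous hearts (0.01 ± 0.57). Slc4a1, the red cell anion exchanger, stood at 2.49, 1.93 and 0.62 against 18.3, 2.89 and 1.47 TPM, its high value coming from heterozygous 1, which also held the liver transcripts. Fetal liver forms red cells, and its part in these values was not tested.

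**Figure D5:**
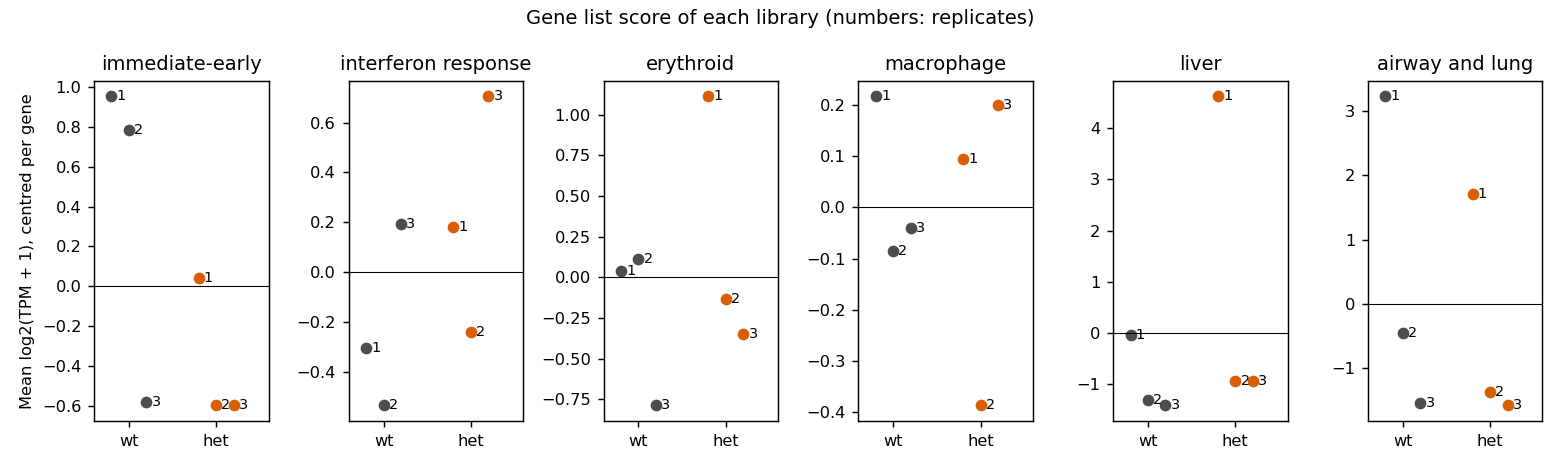
Mean log2(TPM + 1) of each gene list in each library after centring every gene on its mean over the 6 libraries (vertical axis, a scale of its own in each panel), for wild-type (wt) and heterozygous (het) hearts with replicates numbered. Immediate-early genes are highest in wild-type 1 and 2, with heterozygous 1 between these and the other 3 libraries, liver markers in heterozygous 1 and airway markers in wild-type 1 and heterozygous 1.

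Cell-type lists of the heart wall held no called gene and lay close to all genes. The relative medians were 0.02 for 24 endothelial and endocardial genes, -0.02 for 21 epicardial and fibroblast genes, -0.02 for 22 smooth muscle genes, 0.01 for 28 collagens and matrix genes, -0.01 for 36 cell cycle genes and -0.02 for 24 cardiac transcription factors. The 15 atrial genes had a relative median of 0.00 and the 15 ventricular genes -0.08. Xirp2, a ventricular intercalated disc protein, stood at 1.44, 1.42 and 1.61 TPM against 2.35, 2.87 and 3.00 TPM (0.58). Mki67, the Ki-67 proliferation marker, overlapped at 20.7, 29.01 and 36.4 against 36.3, 35.8 and 37.5 TPM.

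Genes of the trabeculae, the muscle ridges of the fetal ventricle, and the natriuretic peptide system had a relative median of 0.09 over 26 genes. Without overlap 8 were higher, against 12.8% of all genes. Among them were the neuregulin receptors Erbb2 (0.25) and Erbb4 (0.46), Notch2 (0.37) and its ligand gene Dll4 (0.36). After median-ratio scaling 3 were higher and 1 lower, against 5.74% and 7.31%. Irx3, a transcription factor of trabeculae and conduction fibres, had the highest change. It stood at 9.16, 9.95 and 13.7 TPM for wild-type against 15.2, 16.8 and 15.9 for heterozygous hearts (0.52 ± 0.16). Nppb, brain natriuretic peptide, overlapped at 911, 752 and 357 against 545, 649 and 396 TPM. No member of the list was called.

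No gene was called among the clustered protocadherins or the imprinted genes, groups that hold genes known for control by CTCF. Of 17 tested clustered protocadherins, 14 lay below the median of all genes with a relative median of -0.18, and the same 17 genes had -0.83 in the homozygous hearts, which share the wild-type controls. Pcdhga2, an isoform of the gamma cluster, was the lowest at 3.36, 3.37 and 4.07 TPM against 2.24, 2.08 and 2.58 TPM (-0.48), without overlap. Of the 17 protocadherins, 2 were lower and none higher without overlap, against 1.07% and 12.8% of all genes. After median-ratio scaling 4 were lower and none higher, against 7.31% and 5.74%. Of 40 imprinted genes, 35 lay above 0 and 10 were higher without overlap, against 81.9% and 12.8% of all genes. Among the 10 were Igf2 and H19 (both 0.30), Peg3 (0.41) and Mest (0.24). After median-ratio scaling 5 were higher and 1 lower, against 5.74% and 7.31%. The relative median in the deposited values was 0.02. Outside these groups, members of the X-linked Bex and Tceal families lay below the median of all genes in 10 of 10 cases. Their relative median was -0.33, and none was called. Without overlap 1 was lower, against 1.07% of all genes, and 3 after median-ratio scaling, against 7.31%.

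X-linked genes tied to sex lay higher in the heterozygous hearts, all female, than in the wild-type hearts of both sexes. Sex and genotype cannot be fully told apart here. Of 12 genes of X inactivation and escape, 9 were higher without overlap, against 12.8% of all genes, and 2 after median-ratio scaling, against 5.74%. An unadjusted p under 0.05 was found for 6. The list summed to 327.1, 226.3 and 255 TPM for wild-type against 434.1, 458.5 and 458.6 TPM for heterozygous hearts. Kdm6a, a histone demethylase that escapes X inactivation, stood at 9.57, 6.82 and 6.57 TPM for wild-type against 14.3, 14.02 and 12.4 for heterozygous hearts (0.76 ± 0.20), so that wild-type 1, which was female, lay below the heterozygous libraries too. With sex as a covariate the relative median of this list went from 0.27 to 0.02.

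Single members of small families separated the genotypes in the deposited values without being called. Sfrp5, a secreted Wnt antagonist, stood at 1.27, 1.83 and 1.55 TPM for wild-type, 3.18, 3.25 and 2.38 for heterozygous and 13.3, 13.7 and 6.69 for homozygous hearts (0.62 ± 0.25 in heterozygous hearts). Gstm6, a glutathione transferase, stood at 4.98, 4.16 and 4.90 against 2, 3.12 and 2.26 TPM (-0.73). Gstt1, of the same enzyme family, was higher at 4.69, 4.59 and 2.89 against 11.3, 4.89 and 7.17 TPM (0.75), and Nmrk1, a nicotinamide riboside kinase, at 1.56, 2.55 and 2.45 against 3.87, 3.12 and 5.15 TPM (0.66). None of the 19 genes of NAD and creatine metabolism was called, nor any of the 19 glutathione transferases. Without overlap, 5 glutathione transferases were higher and 1 lower, against 12.8% and 1.07% of all genes. Of 10 Wnt antagonists 2 were higher, and of the NAD and creatine genes 1 was higher and 1 lower. After median-ratio scaling 1 gene of each list was higher, against 5.74%. Then 1 glutathione transferase and 2 NAD and creatine genes were lower, against 7.31%.

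The remaining lists held no called gene either. Relative medians were -0.09 for 18 genes of the integrated stress response, -0.08 for 21 heat shock genes, -0.05 for 13 MHC class I genes and -0.04 for 25 histone genes, and -0.08 for 10 Wnt antagonists, -0.05 for 19 glutathione transferases and -0.04 for 19 genes of NAD and creatine metabolism. Among lists of other organs, the relative median of 10 airway and lung genes was -0.79 and became 0.43 without wild-type 1, and that of 17 liver genes was 1.65 and became -0.11 without heterozygous 1. The relative medians of 7 skeletal muscle, 9 cartilage and 5 thymic epithelial genes were -0.27, -0.23 and -0.15, and without wild-type 1 they became 0.04, 0.03 and 0.05. Relative medians were -0.07 for 6 brown fat, -0.05 for 4 neuronal and glial and -0.0036 for 4 squamous epithelial genes. The single thymocyte gene tested, Cd1d1, had a change of 0.25 and the 3 Hox genes tested, Hoxa3, Hoxb2 and Hoxb3, lay between -0.34 and 0.02. The 4 Y-linked genes had a relative median of -2.67, in a comparison where 2 of the wild-type hearts and none of the heterozygous hearts were male.

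Leaving out the libraries with airway and liver transcripts changed which genes were called beside Gm13532. With both replicates 1 left out, 3 genes were called, namely Gm13532 lower and Gm13342 and Gm29434 higher. Gm13342 was listed at 0 in every library but heterozygous 2 and 3, which held 54.6 and 29.7 TPM, and Gm29434 likewise held 12.3 and 7.86 TPM there. Both were thus also listed at 0 in heterozygous 1. Both reached the minimum through 1 genotype only, here the heterozygous, so a difference was built into their selection. Among the female libraries the wild-type arm was wild-type 1 alone, assumed to vary like the heterozygous hearts, and 7 genes were called lower, among them Sftpc, surfactant protein C of the lung, which stood at 75.6 TPM in wild-type 1 and at 0.39 TPM or less in the heterozygous hearts. With wild-type 3 left out 10 genes were called, and with heterozygous 1 left out 5.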

How the data were processed

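The authors trimmed the reads with Trim Galore, aligned them with STAR, estimated levels per gene with RSEM on mm10 and tested their counts with DESeq2. The deposited table holds the authors' TPM per gene symbol for 9 libraries, each summing to 999100 to 999245 TPM. Read counts are not used here, so the depth is unknown and no counting interval is given. Of 24597 symbols, 26 altered to dates were dropped, and 11141 genes below a mean of 1 TPM over the 6 libraries were not tested.

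Changes were tested with limma 3.58.1 in R 4.3.3 (two-sided, all 9 libraries, 3 groups, eBayes with trend, pseudocount 1, Benjamini-Hochberg over 13430 genes, threshold 0.05, 6 residual and 4.67 prior degrees of freedom), checked on simulated data. Each tube held the heart of 1 embryo, but litters are not given, so p-values measure the spread between these hearts. The members and the 48 gene lists were chosen with earlier results of these data known. The ribosomal list was cleared of pseudogenes and kinases matched by prefix after values were seen. Named genes were all called genes, the 8 highest and 8 lowest without overlap at 5 TPM or more with an unadjusted p under 0.05, Ctcf, the study's 13 genes and the extremes of each list. Positions come from GENCODE M21, to which 13037 genes (97.1%) matched. The library kit is not stated to keep strand, so reads of overlapping genes on opposite strands cannot be told apart. The labels give the replicates a number and no batch. Deviations of same-numbered wild-type and heterozygous libraries correlated at 0.361, 0.0651 and 0.30 across genes. Those of differently numbered libraries correlated at -0.319 to 0.119. Whether same-numbered libraries shared a batch or litter was not tested, and the main fit used no block.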

Additional observations from a re-analysis of the deposited data

How the results depend on the processing

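The count of called genes, 2 in the report, was 1 with a pseudocount of 0.1, with a minimum mean of 5 TPM, with 6 libraries in the fit, with sex as a covariate, by the study's adjusted p of 0.01 and with median-ratio scaling and sex together. It was 4 without a filter on low values, 5 after median-ratio scaling, 4 after quantile normalization and 7 in the female libraries, where wild-type 1 was the single wild-type heart. Leaving out a library gave 1 to 10 genes. Gm13532 was called in all of these. Library weights gave 4401 genes (4148 higher, 253 lower), but their estimate did not converge and put a weight of 8.61 on wild-type 2 and 0.26 on wild-type 3. With the replicate number as a block 1 gene was called. The median of all genes was -0.000469 after median-ratio scaling, 0.00219 after quantile normalization, 0.255 in the female libraries, 0.00256 with median-ratio scaling and sex, -0.00303 with median-ratio scaling and both replicates 1 left out, and 0.0942 to 0.229 with a library left out. The last 2 combined settings were chosen after seeing the data.

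Of 767 values of named genes, 714 kept direction and side of the threshold. Another 25 newly passed, 14 no longer passed and 14 changed sign, the last all close to 0. Many of the new passes, among them the only ones of Ctcf, Lmod2 and Xist, came with the library weights, whose estimate did not converge. Ehd4 was at -0.0662 after median-ratio scaling, -0.137 with sex added and -0.0141 without both replicates 1. Ndufs6 and Atp5k were at 0.0135 and 0.00181 with library weights, Lmod3 at -0.015 after scaling without both replicates 1. Over the fits with a library left out, Lmod3 ran from -0.00817 to 0.39, Fdps from -0.152 to 0.101 and Acta1 from -0.178 to 0.107. Without counts, the part of sequencing depth in low genes was not tested.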
